A study of Mus musculus with 21 samples.

Results

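The collagen chain genes of mouse kidney were described in 17 mice of 3 diet groups. Members were all genes whose symbol has the form Col, a number, the letter a and a number. There were 44 such symbols, of which 43 had counts among the 20634 genes present in both count tables, and Col9a1 was not analysed here. By the molecule they build, the 44 fall into 11 fibrillar chains, 6 basement membrane (type IV) chains, 9 FACIT chains (fibril-associated collagens with interrupted triple helices) and 18 others, which are 6 type VI chains, 3 chains of types VIII and X, 2 multiplexins, 4 transmembrane chains and 3 further chains. All mice were female apoE knockouts on the C57BL/6J background, which become hyperlipidemic without a special diet, and were 4 weeks old when feeding began and 18 weeks old at tissue collection after 14 weeks of diet. The 5 Con mice received chow, the 6 Ade mice chow with adenine, a purine that injures the tubules and is used to induce chronic kidney disease, and the 6 Ade + IMC mice chow with adenine and iodomethylcholine (IMC), which blocks the formation of trimethylamine by gut bacteria. No group had a functional apoE gene, so every comparison below is within that background. RNA was taken from kidney tissue as a whole, so fewer cells of a type and less RNA per cell cannot be told apart.

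Collagens are proteins in which 3 chains wind around each other, and the winding requires a glycine as the first residue of each triplet. Fibrillar chains of types I, III and V form the fibrils of interstitial scar tissue and are made mainly by fibroblasts and related mural cells. Type IV chains form the sheet-like network of basement membranes: the a1 and a2 chains are used in nearly all tissues, whereas the network of a3, a4 and a5 chains is that of the mature glomerular basement membrane. FACIT chains decorate fibrils, type VI chains form beaded filaments around cells, and multiplexins lie where basement membrane meets interstitium.

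Fibrillar and network-forming chains differ in how long the glycine repeat runs without a break. In the longest open reading frame of each gene among GENCODE M21 transcripts, the longest unbroken run of triplets that begin with a glycine codon was 338 triplets (median of the 11 fibrillar chains, range 216 to 344), against a median of 43.5 triplets (range 39 to 66) for the 6 type IV chains. Those 6 chains carried between 22 and 27 separate runs of 6 or more triplets, and the fibrillar chains 2 or 3. Stretches of 21 codons are shown for the 3 fibrillar chains with the highest counts in Ade mice, from the start of their longest run, and for 2 type IV chains that moved in opposite directions, across the end of theirs. Capitals mark every glycine codon.
Col1a1, codons 168 to 188: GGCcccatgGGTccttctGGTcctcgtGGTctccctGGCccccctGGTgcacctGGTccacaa
Col1a2, codons 97 to 117: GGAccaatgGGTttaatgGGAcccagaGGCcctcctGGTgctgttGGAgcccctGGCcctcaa
Col3a1, codons 164 to 184: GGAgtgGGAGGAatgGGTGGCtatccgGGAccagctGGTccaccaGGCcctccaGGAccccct
Col4a1, codons 1341 to 1361: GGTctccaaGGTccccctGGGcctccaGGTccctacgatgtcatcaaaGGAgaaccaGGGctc
Col4a3, codons 148 to 168: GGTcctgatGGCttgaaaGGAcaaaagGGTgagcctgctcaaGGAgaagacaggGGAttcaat
In the fibrillar chains capitals open each triplet of codons throughout, with additional glycines in Col3a1, while in Col4a1 and Col4a3 the spacing breaks within the window.

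The type IV genes lie in head-to-head pairs that are transcribed away from each other, and the members of a pair are described together below. The annotated starts of Col4a1 and Col4a2 overlap by 22 bases on chromosome 8, those of Col4a4 and Col4a3 lie 71 bases apart on chromosome 1, and those of Col4a6 and Col4a5 lie 1308 bases apart on chromosome X. The interval between Col4a4 (minus strand) and Col4a3 (plus strand), chr1:82586850-82586920 of GRCm38 (plus strand), is shown because both of its genes fell in Ade mice, and the 150 bases before the start of Col3a1 (chr1:45311388-45311537, plus strand, RefSeq), because this gene showed 1 of the largest rises. Windows were searched on both strands for the CCAAT box, for TATAAA as a TATA box, and for GGGCGG as a GC box, and capitals mark a match.
Col4a4 to Col4a3: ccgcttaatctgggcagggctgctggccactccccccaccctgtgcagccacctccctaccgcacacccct
Col3a1: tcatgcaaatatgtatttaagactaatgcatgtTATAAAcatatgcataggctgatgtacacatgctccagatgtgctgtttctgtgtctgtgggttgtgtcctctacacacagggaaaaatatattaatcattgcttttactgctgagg
None of the 3 motifs is in the 71 bases, and the Col3a1 window holds TATAAA. Of the 34 members with a RefSeq promoter window, 35.3% held CCAAT, 14.7% TATAAA and 64.7% GGGCGG, against 37.4%, 13.6% and 35.7% of all 32851 windows. A member counted if any of its windows held the motif, whereas the shares of all windows are per window. The shares are therefore not like for like. The motifs are matches of letters and were not tested further.

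Libraries held 7716126 to 11680809 counts in Con, 5444833 to 7673215 in Ade and 5728589 to 8305968 in Ade + IMC. Levels are given as CPM, the count scaled to a common library size after TMM scaling over the 17 mice, and at these depths 3 counts correspond to 0.303 to 0.501 CPM. Havcr1, the tubular injury marker Kim-1, had 1 to 7 counts in Con mice, 549 to 2104 in Ade mice and 192 to 1580 in Ade + IMC mice, so each adenine-fed library stood apart from the Con libraries. The Ade and Ade + IMC ranges overlap, and this check does not tell those groups apart. Defining markers of kidney were present: the 8 proximal tubule markers summed to 10875 to 15621 CPM in Con mice. Each library came from a separate mouse, and the labels name no cage, litter or batch.

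The first question was which collagen chains changed with adenine feeding. The largest rises were those of Col1a1 (18.4 times), Col3a1 (17.5 times), Col6a4 (13.6 times), Col1a2 (8.42 times) and Col8a2 (7.68 times). Col6a4 and Col8a2 rose from at most 12 and 7 counts in Con, and neither had a Con mouse above the filter on low counts. Col6a1, Col6a2 and Col6a3 of type VI rose, with log2 fold changes of 1.64 to 2.20, as did Col6a4, Col6a5 and Col6a6, which passed the filter on low counts only through the Ade mice, and the type IV chains split, with Col4a1 and Col4a2 up and Col4a3 and Col4a4 down. By edgeR's quasi-likelihood test, with p-values adjusted after Benjamini and Hochberg over all 14612 genes tested and a threshold of 0.1, 26 of the 35 chains tested were higher in Ade than in Con mice and 3 were lower. Of all genes tested, 35.1% were called higher and 32.2% lower. Because 7 of the 35 chains passed the filter on low counts with fewer than 5 Con mice above it, the count that does not lean on the Ade mice is that of the other 28 chains, of which 20 were higher, 3 lower and 5 not called. Among all genes with 5 Con mice above the filter, 30.4% were called higher and 36.1% lower. The median log2 fold change was 0.99 over the 28 chains and 0.02 over all genes tested. The CPM ranges of the Ade and Con mice did not overlap in 19 of the 28 chains and 23 of the 35, against 43% of all genes tested. Scaling by library size alone moved the median of all genes by 0.30 on the log2 scale and the split of calls over all genes to 7990 higher and 2497 lower. Under it 29 chains were higher and 3 lower.

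**Figure D1:**
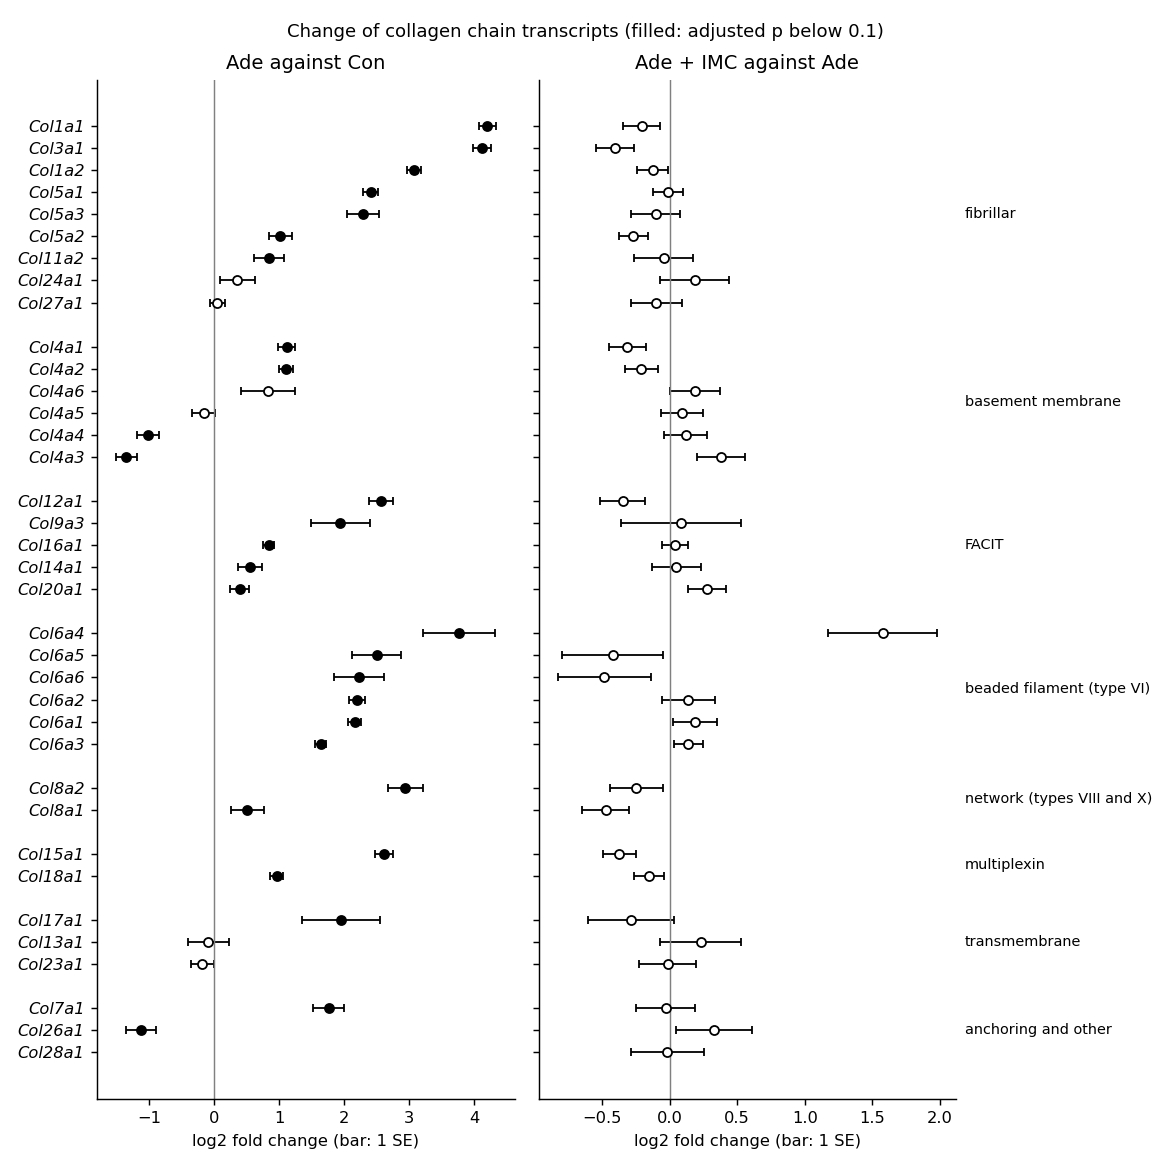
Log2 fold change (horizontal axis) of each collagen chain tested, by class, in Ade against Con (left, edgeR) and Ade + IMC against Ade (right, limma); bars are 1 standard error and filled points have an adjusted p below 0.1. The left panel runs from -1.35 for Col4a3 to 4.20 for Col1a1, and the right panel has no filled point.

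Of the 11 fibrillar chains, 7 of the 9 tested were higher in Ade, as were 35.1% of all genes, and 2 were not called. Col1a1, the major chain of type I collagen (chr11:94936224-94953042, plus strand, GRCm38), stood at 41.3, 50.8, 41.8, 46.2 and 46.1 CPM in the Con mice and at 679.7 to 1019.7 CPM (median 813) in the Ade mice. The lowest Ade mouse was 13.4 times the highest Con mouse, and the group means were 45.3 ± 3.88 (SD, n = 5) and 819 ± 113 CPM (SD, n = 6). Its log2 fold change of 4.20 (SE 0.13, adjusted p = 3.71e-10, edgeR) was the largest of all chains. Col3a1, the chain of type III collagen, had 54.3, 59.8, 46.3, 51.7 and 53.3 CPM in Con and 705 to 1059 CPM (median 928) in Ade, a log2 fold change of 4.13 (SE 0.14, adjusted p = 5.96e-10, edgeR). Col1a2, the second chain of type I, had 78.7, 97.9, 88.7, 82.1 and 83.9 CPM in Con and 635 to 823 CPM (median 716) in Ade, and rose by less than its partner, with a log2 fold change of 3.07 (SE 0.11). These 3 chains separated the groups without overlap. Col3a1 shares 141 exonic bases with Gm47302 on the same strand.

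The type V chains, which set fibril diameter, rose to different degrees. Col5a1 had a log2 fold change of 2.41 (SE 0.12) and Col5a3 of 2.29 (SE 0.25), whereas that of Col5a2 was 1.02 (SE 0.17). Col5a1 shares 212 exonic bases with 2810430I11Rik and Gm13372 on the opposite strand. In Col5a2 the Con mice varied widely, at 88.7, 47.1, 43.6, 73.1 and 59.1 CPM, and the Ade mice at 101 to 149 CPM (median 120.4) began just above the highest Con mouse, 201. Col11a2, a minor fibrillar chain better known from cartilage, rose by 0.84 (SE 0.23) from 1.72 to 3.03 CPM in Con to 2.84 to 5.49 CPM in Ade, with overlapping ranges. Col27a1, the fibrillar chain with the highest level per kilobase of transcript in Con mice (28.9 ± 3.45 CPM per kilobase, SD, n = 5), had a log2 fold change of 0.05 (SE 0.12, adjusted p = 0.732, edgeR), with counts of 1318 to 2074 in Con and 1557 to 1771 in Ade, though scaling by library size alone called it higher (0.35). Col24a1 was not called, with counts of 9 to 19 in Con and 12 to 22 in Ade, and was called higher (0.65) with library size alone. Col2a1, the cartilage chain, had 0 to 3 counts in any Con or Ade mouse, and Col11a1 had 0 to 4 counts in Con and 2 to 14 in Ade, and neither was tested.

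Of the 6 type IV chains 2 rose, 2 fell and 2 were not called, near the 35.1% higher and 32.2% lower of all genes, so these counts are not read as particular to type IV. Col4a1 (chr8:11198423-11312826, minus strand) stood at 491, 453, 416, 462 and 406 CPM in the Con mice and at 768 to 1177 CPM (median 921) in the Ade mice, a log2 fold change of 1.11 (SE 0.13, adjusted p = 7.95e-06, edgeR). Its neighbour and partner Col4a2 had 286, 271, 259.9, 278 and 246 CPM in Con, 466 to 666 CPM (median 566) in Ade, and the same log2 fold change of 1.11 (SE 0.11). Both separated the groups. Col4a3 (chr1:82586921-82722059, plus strand) was the most abundant type IV transcript of the Con mice, at 894, 821, 845, 888 and 807 CPM, and had 240.3 to 471 CPM (median 322) in the Ade mice. Its log2 fold change was -1.35 (SE 0.16, adjusted p = 9.22e-06, edgeR), the largest fall of any chain. Col4a4, transcribed from the other side of the 71 bases shown above, had 369, 323, 279.5, 365 and 239 CPM in Con and 97.1 to 209 CPM (median 154) in Ade, a log2 fold change of -1.02 (SE 0.17). Again no Ade mouse overlapped a Con mouse.

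Col4a5, the partner of both, was not called (log2 fold change -0.16, SE 0.17, adjusted p = 0.447, edgeR), with counts of 420 to 843 in Con and 257 to 689 in Ade. Col4a6, which forms a network with a5 chains in smooth muscle and some epithelia, had counts of 72, 133, 136, 23 and 24 in Con mice 201, 202, 301, 302 and 403 and of 83 to 192 in Ade mice. Its log2 fold change of 0.83 (SE 0.42) just missed the threshold (adjusted p = 0.103, edgeR), and it passed with upper quartile or library size scaling, in the fit of 17 mice, with the leading digit as a block, and without Con mouse 202 or 301 or Ade mouse 407. The same Con mice 302 and 403 had 1 count each of Krt5, a basal keratin of the urothelium, where the other Con mice had 31, 31 and 18, and the part of urothelial tissue in the result was not tested. Podocytes are the source of a3, a4 and a5 chains in the glomerulus. Of 6 podocyte markers 2 were higher in Ade and none was lower, where 35.1% of all genes were called higher and 32.2% lower. Their summed level was 785 to 988 CPM in Con and 326 to 1051 CPM in Ade. The log2 fold change of Nphs1 (nephrin), not called, was -0.52. Among the Ade mice this marker was uneven. Nphs1 stood at 10.7, 21.7 and 34.8 CPM in Ade mice 207, 208 and 308, which had the lowest Col4a3 (288, 246 and 240.3 CPM). It stood at 50.9, 50.3 and 47.6 CPM in mice 407, 408 and 409, within the Con range of 42.5 to 63.2 CPM. Those mice had 471, 356 and 373 CPM of Col4a3, and every Ade mouse was below every Con mouse in Col4a3. The part of podocyte content in the result was not tested. With each mouse left out in turn the log2 fold change of Col4a3 lay between -1.49 and -1.27. Col4a3 shares 563 exonic bases with the antisense gene C430014B12Rik, Col4a1 shares 22 with Col4a2, and Col4a2 shares 65 with Col4a1 and Gm15419, so their counts are uncertain to that extent, since strand use is not stated.

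**Figure D2:**
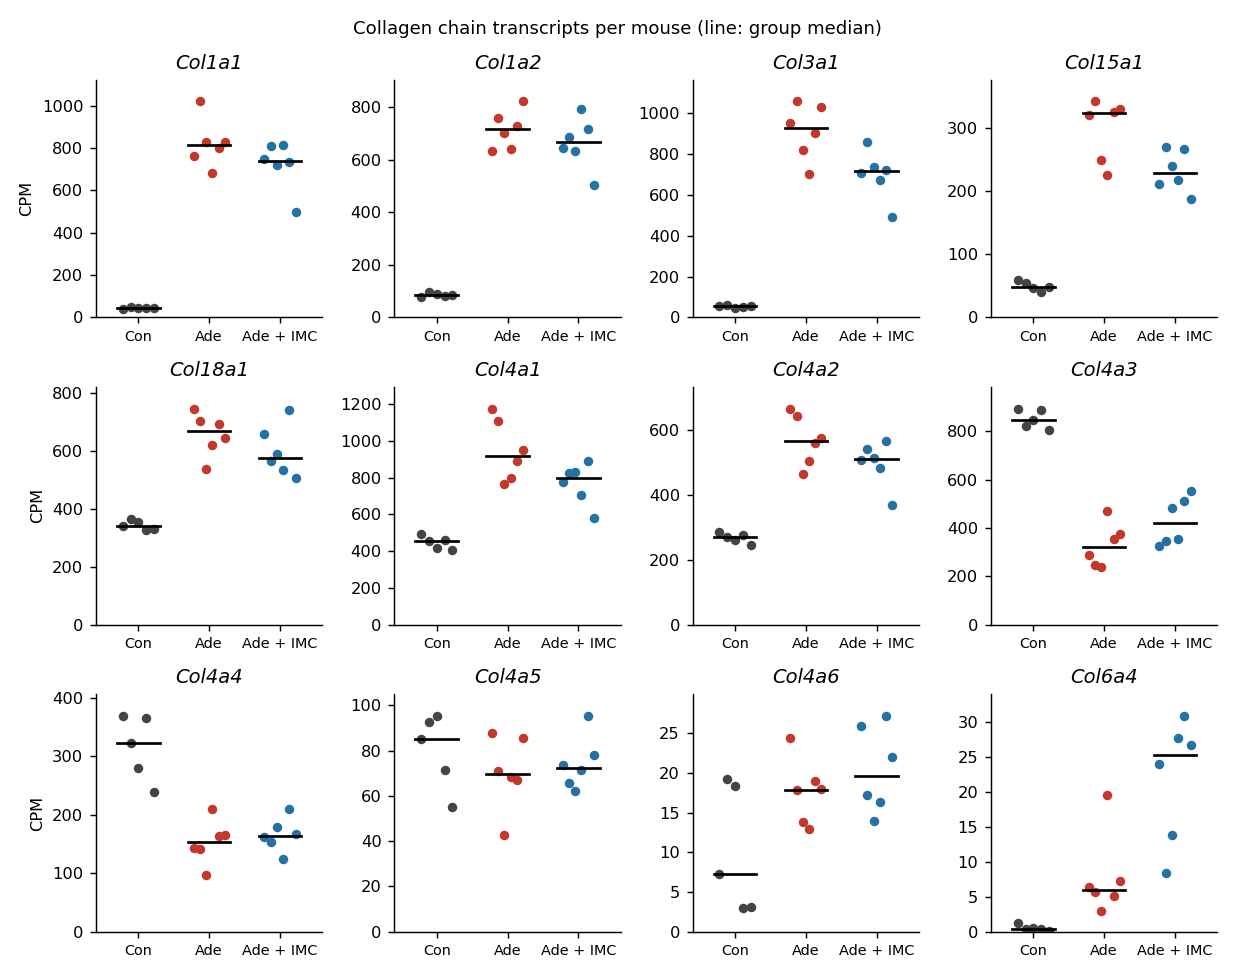
CPM per mouse (vertical axis, from 0) of 12 collagen chains in Con (5 mice), Ade (6) and Ade + IMC (6); each point is a mouse and the line the group median. Type I and III chains have medians of 46.1 to 83.9 CPM in Con and 716 to 928 CPM in Ade, Col4a3 falls from a median of 845 to 322 CPM, and Col6a4 has its highest values in Ade + IMC.

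Type VI chains were called higher in Ade, 3 abundant ones and 3 scarce ones for which no Con mouse was above the filter on low counts. Of all genes 35.1% were called higher, and 30.4% of those with all 5 Con mice above the filter. Col6a1, Col6a2 and Col6a3 build the usual beaded filament. Col6a1 had 28.8, 27.6, 31.8, 32.0 and 30.8 CPM in Con and 109 to 158 CPM (median 134) in Ade, a log2 fold change of 2.16 (SE 0.10). Its neighbour Col6a2 on chromosome 10 had 19.2, 17.5, 17.6, 22.9 and 16.98 CPM in Con, 66.0 to 106 CPM (median 84.0) in Ade and a log2 fold change of 2.20 (SE 0.12). Col6a3 had 41.8, 42.3, 43.5, 39.6 and 38.5 CPM in Con, 104 to 139 CPM (median 130.1) in Ade and a log2 fold change of 1.64 (SE 0.09). The 3 scarce chains, Col6a4, Col6a5 and Col6a6, lie side by side on chromosome 9, are alternatives to the a3 chain, and had no Con mouse above the filter on low counts. Col6a4 had 12, 3, 4, 3 and 1 counts in Con and 18 to 145 counts in Ade. Its log2 fold change of 3.77 (SE 0.56) became 4.35 without Con mouse 201 and 3.25 without Ade mouse 407, which held the 145. Col6a5 went from 1 to 6 counts in Con to 10 to 32 in Ade, and Col6a6 from 2 to 7 counts to 6 to 25. Col6a4 shares 289 exonic bases with 2 genes on the opposite strand.

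Among FACIT chains, 5 of the 8 with counts were tested and these 5 were called higher, as were 35.1% of all genes. Col9a3, 1 of the 5, had no Con mouse above the filter on low counts. Col12a1, which bridges type I fibrils, had 26.0, 31.0, 25.1, 21.04 and 19.3 CPM in Con and 109 to 206 CPM (median 127) in Ade, a log2 fold change of 2.57 (SE 0.18). Its close relative Col14a1 moved far less: 40.4, 43.3, 35.6, 61.7 and 48.7 CPM in Con against 44.9 to 92.0 CPM (median 65.3) in Ade, with overlapping ranges and a log2 fold change of 0.56 (SE 0.19, adjusted p = 0.0189, edgeR). Col16a1 had 45.0, 39.9, 39.8, 34.5 and 41.0 CPM in Con and 64.0 to 78.2 CPM (median 70.9) in Ade, a log2 fold change of 0.84 (SE 0.08). Col20a1 rose by 0.40 (SE 0.15) with overlapping ranges, and shares 79 exonic bases with BX649560.1 on the same strand. Col9a3, better known from cartilage, went from 2 to 6 counts in Con to 4 to 17 in Ade. It shares 234 exonic bases with Tcfl5 on the opposite strand. Col9a2, Col19a1 and Col22a1 had at most 12 counts in any Con or Ade mouse and were not tested.

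The 2 multiplexins carry endostatin or a related fragment at their end and rose to different degrees. Col15a1 had 58.4, 54.0, 46.2, 40.4 and 48.1 CPM in Con and 225 to 342 CPM (median 323) in Ade, a log2 fold change of 2.62 (SE 0.14, adjusted p = 1.25e-08, edgeR). Col18a1 had 339.9, 366, 354, 327 and 332 CPM in Con and 538 to 747 CPM (median 670.04) in Ade, a log2 fold change of 0.96 (SE 0.10). Both separated the groups. Of the short-chain network collagens, Col8a2 rose from 3 to 7 counts to 27 to 53 (log2 fold change 2.94, SE 0.27), with no Con mouse above the filter. In Con its levels were 0.706, 0.722, 0.406, 0.779 and 0.784 CPM. Its partner Col8a1 had 18.1, 14.3, 14.6, 33.0 and 9.80 CPM in Con and 18.8 to 34.1 CPM (median 24.4) in Ade. The call of Col8a1 was marginal (log2 fold change 0.51, SE 0.25, adjusted p = 0.0984, edgeR) and ended with DESeq2 (0.128), with RLE size factors (0.115), without the filter on low counts (0.122) and without any 1 of the Con mice 201, 202, 301 or 403 or of the Ade mice 207, 208, 308 or 409 (adjusted p between 0.101 and 0.221). Col10a1, the hypertrophic cartilage chain, had 4, 0, 1, 0 and 0 counts in Con and 1 to 13 in Ade and was not tested.

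Of the 3 transmembrane chains tested Col17a1 was called higher, as were 35.1% of all genes, and had 1 Con mouse above the filter on low counts against 6 Ade mice. This hemidesmosome chain of basal epithelia had 58 counts in Con mouse 201 and 6, 3, 7 and 3 in the other Con mice, against 24 to 107 in the Ade mice. Its log2 fold change was 1.96 (SE 0.60, adjusted p = 0.0125, edgeR) and 3.42 without mouse 201. Among 7 urothelial markers, a list chosen after values were seen, 5 were higher in Ade (35.1% of all genes were) and none was lower (32.2% of all genes were), and their sum was 3.25 to 34.7 CPM in Con and 18.3 to 158 CPM in Ade. None was at 0 in all mice of a group. The part of urothelial tissue in the rise of Col17a1 was not tested. Col13a1 and Col23a1 were not called: Col13a1 had counts of 11 to 31 in Con and 9 to 27 in Ade, and Col23a1 of 44 to 72 and 36 to 66. Col25a1 had 5 to 13 counts in Con and 3 to 6 in Ade and was not tested.

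Of the 3 further chains, Col7a1, the anchoring fibril chain, had 6.26, 8.38, 10.6, 7.01 and 7.45 CPM in Con and 15.9 to 38.6 CPM (median 25.2) in Ade, a log2 fold change of 1.77 (SE 0.24). Col26a1 was the third chain that fell, from 4.54, 7.51, 7.18, 5.46 and 4.44 CPM in Con to 1.78 to 3.75 CPM (median 2.39) in Ade, a log2 fold change of -1.12 (SE 0.23, adjusted p = 9.58e-04, edgeR). Its ranges did not overlap either, at 34 to 53 counts in Con and 12 to 33 in Ade. Col28a1 had 3 to 7 counts in Con and 7 to 18 in Ade and was not tested in this comparison.

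With these changes the order of the chains turned over. Per kilobase of transcript, the chains with the highest levels in Con mice were Col4a3 (99.5 ± 4.58 CPM per kilobase), Col4a1 (67.4 ± 5.28), Col18a1 (61.4 ± 2.89), Col4a2 (41.6 ± 2.41) and Col4a4 (31.2 ± 5.55, SD, n = 5). Of these neighbours Col4a1 and Col18a1 lay within about 1 SD of each other. In Ade mice the leading chains were Col3a1 (164 ± 24.0), Col4a1 (144 ± 25.0), Col1a1 (138 ± 19.0), Col1a2 (134 ± 13.4) and Col18a1 (118 ± 13.2, SD, n = 6), whose neighbours were not apart beyond their spread, and Col4a3 was at 38.5 ± 10.3. All collagen counts together made 0.249 to 0.285% of the library in Con mice, 0.613 to 0.839% in Ade mice and 0.503 to 0.706% in Ade + IMC mice. Fibrillar chains held 15.4 to 18.9% of collagen counts per kilobase in Con and 42.2 to 50.002% in Ade, while type IV chains held 54.6 to 58.7% and 24.1 to 30.4%. Without the division by length these shares were 14.3 to 18.0% and 40.1 to 48.5% for fibrillar chains and 60.7 to 64.9% and 27.5 to 34.0% for type IV chains. The share of FACIT chains took no direction that held on both scales: per kilobase it was 3.98 to 4.48% in Con and 2.91 to 4.09% in Ade, and in plain counts 3.61 to 3.99% and 3.50 to 5.27%. Within type IV, the a3 and a4 chains together went from 57.8 to 60.6% of the type IV counts in Con to 17.4 to 32.9% in Ade.

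**Figure D3:**
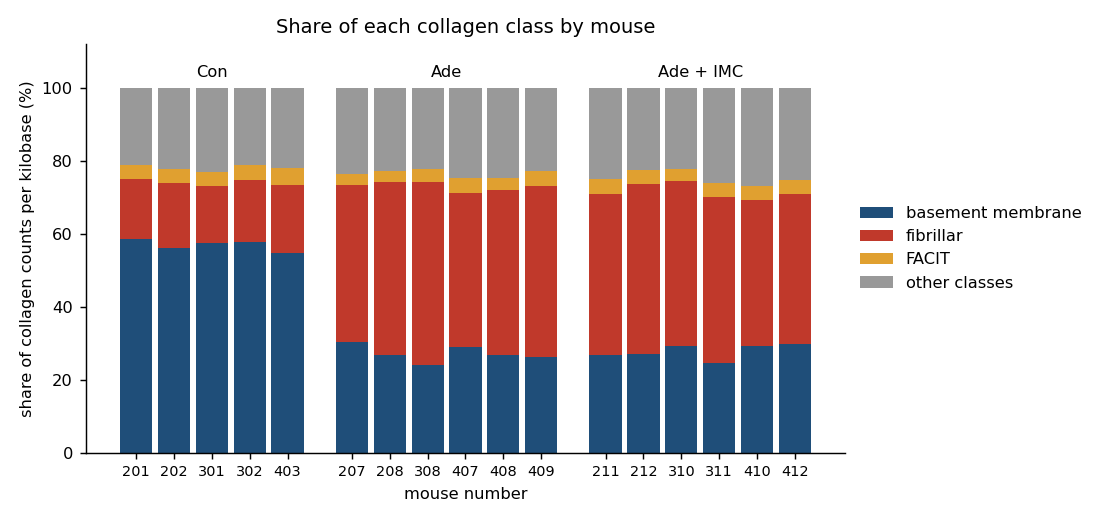
Share of collagen counts per kilobase of transcript (percent, vertical axis) held by each class in each of the 17 mice, grouped by diet. Type IV chains hold 54.6 to 58.7% in the Con mice and 24.1 to 30.4% in the Ade mice, and the Ade + IMC mice lie at 24.6 to 29.9%.

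Ratios of 2 chains within a library do not depend on scaling, and were compared between groups for 13 pairs in 2 comparisons by a two-sided exact permutation test over mice, adjusted over the 26 tests. The ratios are of counts, not of molecules. Between Ade and Con mice 10 of the 13 pairs passed an adjusted p of 0.1. Pairs of other genes were not compared, so this count is not read as particular to collagens. Col1a1 to Col1a2, which assemble in 1 molecule, had ratios of 0.472 to 0.564 (median 0.525) in Con and 1.01 to 1.34 (median 1.14) in Ade, a log2 difference of 1.12 (exact permutation p = 0.00216, the smallest this test can give, adjusted p = 0.00938). Col4a1 to Col4a3 had ratios of 0.493 to 0.552 in Con and 1.70 to 4.51 in Ade (exact permutation p = 0.00216, adjusted p = 0.00938), so the Con mice lay close together and the Ade mice spread widely. Col15a1 to Col18a1 went from 0.124 to 0.172 in Con to 0.362 to 0.511 in Ade, and Col5a1 to Col5a2 from 0.220 to 0.501 to 0.695 to 1.03, both without overlap and with the same p.

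The other pairs that passed were Col8a1 to Col8a2 (log2 difference -2.25), Col1a1 to Col4a1 (3.09), Col4a5 to Col4a6 (-1.38), Col4a4 to Col4a5 (-0.87), Col6a1 to Col6a3 (0.52) and Col4a3 to Col4a4 (-0.36), with adjusted p between 0.00938 and 0.0225 in exact permutation tests. Col8a2 had 3 to 7 counts in Con and passed the filter on low counts only through the Ade mice. The Col8a1 to Col8a2 result is therefore no separate support for a change. The other 3 pairs did not pass. The head-to-head partners Col4a1 to Col4a2 had ratios of 1.60 to 1.72 in Con and 1.59 to 1.77 in Ade (exact permutation p = 0.974), the neighbours Col6a1 to Col6a2 had 1.40 to 1.81 and 1.46 to 1.69 (exact permutation p = 0.654), and Col1a1 to Col3a1 had 0.760 to 0.904 and 0.798 to 1.01 (exact permutation p = 0.329). Mouse numbers begin with 2, 3 or 4, a digit whose meaning the labels do not give, and with mice permuted only among those that share it the same number of pairs, 10, passed (72 splits).

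**Figure D4:**
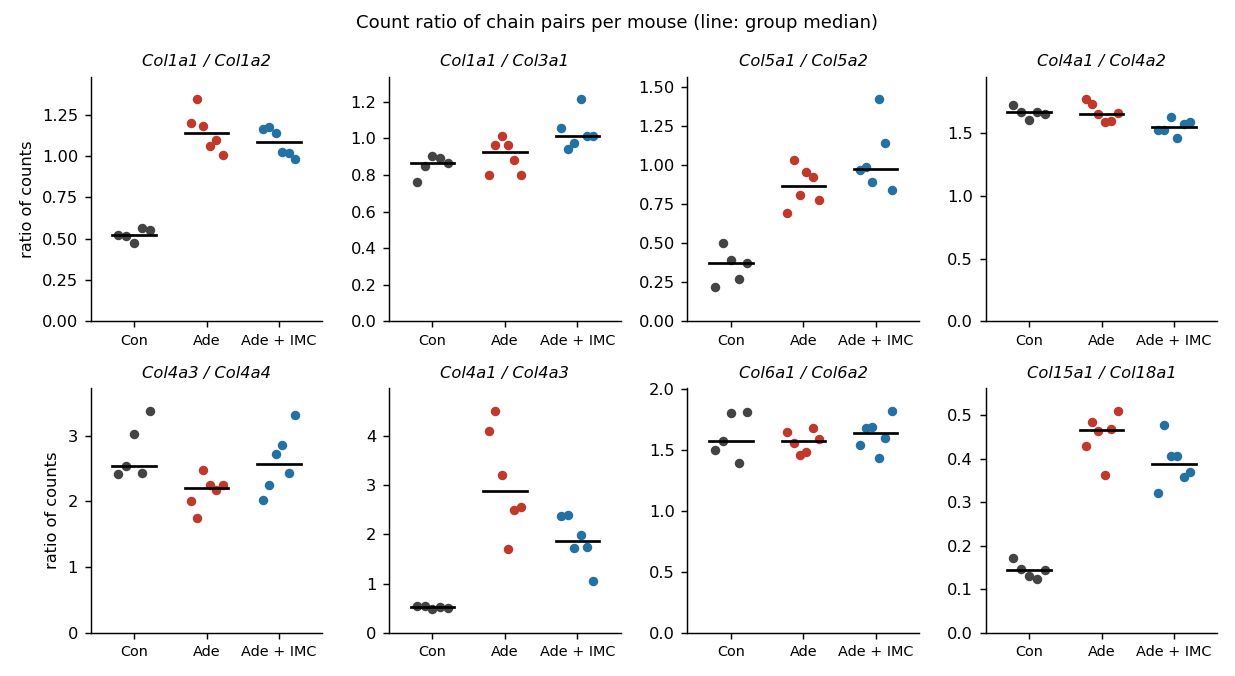
Ratio of the counts of 2 collagen chains (vertical axis, from 0) per mouse in Con, Ade and Ade + IMC; points are mice and lines group medians. Col1a1/Col1a2, Col5a1/Col5a2, Col4a1/Col4a3 and Col15a1/Col18a1 separate Con from Ade, while Col4a1/Col4a2 has medians of 1.67 and 1.65.

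The second question was whether IMC altered collagen transcripts under the adenine diet. The Ade + IMC mice were close to the Ade mice: Col4a3 lay between Ade and Con, and Col6a4 lay higher, but no chain passed the test. By limma on log2(normalized count + 1), none of the 36 chains tested was called at an adjusted p below 0.1, as was the case for all 14696 genes tested (0%). At an unadjusted p below 0.05, 1 chain was higher and 5 were lower, against 3.37% and 3.35% of all genes. No chain had ranges of CPM that were apart, against 0.225% of all genes. EdgeR on the whole reads called 0 chains and 0% of all genes, and DESeq2 called 1 chain, Col6a4, and 0.246% of the 15054 genes with an adjusted p. With the leading digit of each mouse's number as a block, limma called 0.905% of all genes and 1 chain, again Col6a4.

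Col6a4 had 6.35, 5.68, 3.01, 19.6, 5.12 and 7.23 CPM in the 6 Ade mice and 24.0, 8.37, 13.8, 27.8, 30.9 and 26.7 CPM in the Ade + IMC mice. Only Ade mouse 407 reached into the Ade + IMC range, where 2 mice lay below it. The log2 fold change was 1.58 (95% interval 0.71 to 2.45, adjusted p = 0.643, limma). The blocked limma fit called it (adjusted p = 0.0825), as did DESeq2 on the whole reads, while the blocked edgeR fit did not. Within each leading digit every Ade + IMC mouse was above every Ade mouse. Against Con, the log2 fold change of Col6a4 was 3.77 in Ade and 5.19 in Ade + IMC. Both values rest on the same 5 Con mice, with 1 to 12 counts each. None of these Con mice was above the filter on low counts.

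The 5 chains that were lower at an unadjusted p below 0.05 were Col15a1, Col3a1, Col8a1, Col5a2 and Col4a1. Col15a1 had 321, 342, 249, 225, 325 and 330.2 CPM in Ade and 212, 269.9, 239, 217, 266 and 187 CPM in Ade + IMC, a log2 fold change of -0.37 (95% interval -0.64 to -0.10). Col3a1 had 953, 1059, 820.2, 705, 902 and 1033 CPM in Ade and 709, 859.8, 739, 672, 721 and 490.2 CPM in Ade + IMC, a log2 fold change of -0.40 (95% interval -0.71 to -0.10). In both genes the groups overlapped through Ade mice 407 and 308. The intervals of Col8a1 (-0.85 to -0.10), Col5a2 (-0.50 to -0.04) and Col4a1 (-0.61 to -0.02) also lay below 0 before adjustment. Col1a1 had a log2 fold change of -0.21 with an interval of -0.50 to 0.09, and Col1a2 of -0.13 with -0.38 to 0.12.

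Col4a3, which fell with adenine, had 288, 246, 240.3, 471, 356 and 373 CPM in Ade and 327, 344, 484, 355, 509.9 and 552 CPM in Ade + IMC. In mice whose number begins with 2 the Ade values of 288 and 246 lay below the Ade + IMC values of 327 and 344, and the same order held for the digits 3 and 4. Its log2 fold change was 0.38 (95% interval -0.01 to 0.77, adjusted p = 0.742, limma), and the adjusted p with the leading digit as a block was 0.114. In the same comparison the 6 podocyte markers had a median log2 fold change of 0.49 (Nphs1 0.48). None was called, as for all genes tested (0%). The part of podocyte content in the result was not tested. For Col4a4 the log2 fold change was 0.12 (interval -0.22 to 0.46). The 3 abundant type VI chains had log2 fold changes of 0.14 to 0.19 with intervals that include 0.

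**Figure D5:**
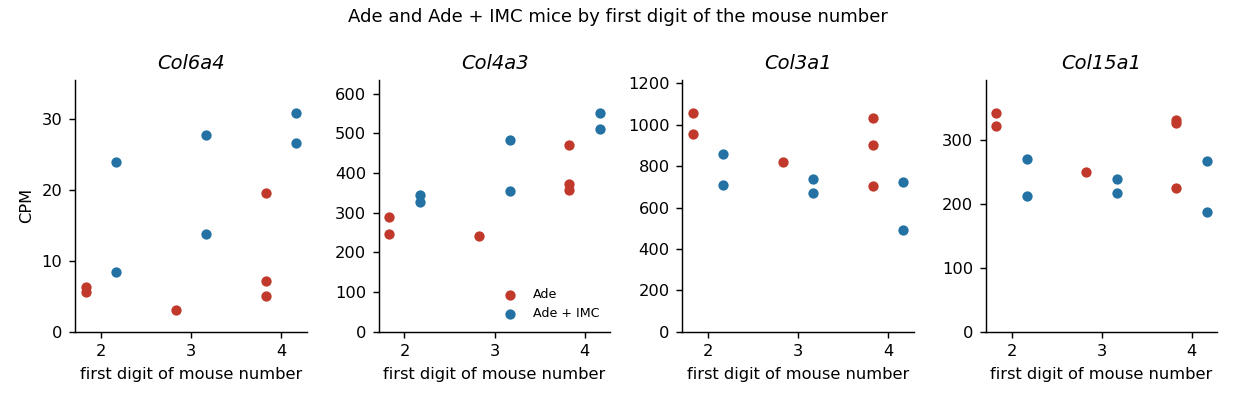
CPM (vertical axis, from 0) of 4 chains in Ade and Ade + IMC mice by the leading digit of each mouse's number (horizontal axis); each point is a mouse. Within every digit the Ade + IMC mice are above the Ade mice in Col6a4 and Col4a3, whereas Col3a1 and Col15a1 overlap in digit 4.

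Among the pair ratios, 3 of 13 passed an adjusted p of 0.1 between Ade + IMC and Ade mice. Col4a1 to Col4a2, whose ratio was 1.59 to 1.77 in Ade, was 1.46 to 1.63 in Ade + IMC (log2 difference -0.10, exact permutation p = 0.0108, adjusted p = 0.0256), and stayed below 0.1 with each mouse left out. The Col4a1 to Col4a3 ratio went from a median of 2.86 in Ade to 1.86 in Ade + IMC (log2 difference -0.69, exact permutation p = 0.0303, adjusted p = 0.0606), and Col1a1 to Col3a1 from 0.923 to 1.01 (log2 difference 0.20, the same p). The Col4a1 to Col4a3 result did not hold without any 1 of Ade mice 207, 208, 308 or 409 or Ade + IMC mice 310, 410 or 412 (adjusted p of 0.103 to 0.134, exact permutation), nor that of Col1a1 to Col3a1 without 1 of Ade mice 207, 408 or 409 or Ade + IMC mice 211, 311, 410 or 412 (adjusted p of 0.103 to 0.145, exact permutation). Col4a3 to Col4a4 missed the threshold (median 2.21 in Ade, 2.57 in Ade + IMC, exact permutation p = 0.0649, adjusted p = 0.113) and passed when mice were permuted within the leading digit (exact permutation p = 0.00556, adjusted p = 0.0361). The Col1a1 to Col1a2 ratio stayed at 0.983 to 1.18 in Ade + IMC (exact permutation p = 0.325).

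Against Con mice, which also served the first comparison, 26 of 35 chains tested were higher in Ade + IMC and 3 were lower, where 30.9% of 14578 genes were higher and 32.3% lower. Of the 28 chains with 5 Con mice above the filter, 20 were higher and 3 lower. Set side by side, the log2 fold change from Con was 4.20 in Ade and 3.97 in Ade + IMC for Col1a1, 4.13 and 3.69 for Col3a1, 3.07 and 2.92 for Col1a2, 2.62 and 2.20 for Col15a1, and 1.11 and 0.76 for Col4a1. For the chains that fell it was -1.35 and -1.02 for Col4a3, -1.02 and -0.96 for Col4a4, and -1.12 and -0.78 for Col26a1. Col6a4 had 3.77 and 5.19, the latter 5.79 without Con mouse 201. Col8a1 was at 0.51 and -0.01, and Col4a6 at 0.83 and 0.98, the second of which was called (adjusted p = 0.0713, edgeR). That call of Col4a6 was lost with DESeq2 and without Con mouse 201, 302 or 403 or Ade + IMC mouse 211 or 410 (adjusted p between 0.106 and 0.151). Col11a1 was tested only here, with 8 to 20 counts in Ade + IMC (log2 fold change 2.51, SE 0.47), and Col28a1 had a log2 fold change of 1.25. Neither had a Con mouse above the filter.

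The genes that fold, process, bind, cross-link and degrade collagen were taken as lists, and their counts stand beside 35.1% of all genes called higher and 32.2% called lower in Ade against Con. For cross-linking, 6 of 7 genes were higher in Ade than in Con and 1 was lower: Lox, which oxidises lysines of fibrillar collagen, had a log2 fold change of 3.004 (SE 0.25), Loxl3 of 1.93 and the peroxidase Pxdn, which cross-links type IV collagen, of 1.5002, while Loxl4 fell by 1.38. Of 18 folding and modification genes tested, 10 were higher and 5 lower. Fkbp10, a collagen prolyl isomerase, had a log2 fold change of 2.28, the collagen chaperone Serpinh1 of 1.41 and P3h3 of 1.24, while P3h2, a prolyl 3-hydroxylase that acts on type IV collagen, fell by 1.45. Of 11 export and propeptide genes, 5 were higher and 5 lower. The smallest p were those of the procollagen N-proteinase Adamts2 (log2 fold change 3.20), the C-proteinase Bmp1 (1.81) and the export factor Mia2 (-0.94).

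Against the same 35.1% and 32.2% of all genes, 8 of 14 fibril-binding proteins were higher and 2 lower, with Bgn at 2.07, Sparc at 2.19 and Thbs2 at 2.35 on the log2 scale. Among 9 collagen receptors and uptake genes, 8 were higher and 1 lower, with the endocytic receptor Mrc2 at 1.76, Lair1 at 2.52 and the discoidin receptor Ddr2 at 1.64. Of 9 genes for breakdown, 6 were higher and none lower: Mmp2 (3.47), Mmp14 (3.22) and Ctsk (2.75) had the smallest p. Between Ade + IMC and Ade mice limma called none of the genes in these 6 lists, where the log2 fold changes with the smallest unadjusted p were 0.97 for Aspn and -0.27 for Serpinh1. Against Con, the Ade + IMC mice had 5 of 7 cross-linking genes higher and 1 lower, and 6 of 9 breakdown genes higher and 1 lower. Of 18 folding and modification genes 9 were higher and 5 lower, and of 11 export and propeptide genes 5 and 4. Of 14 fibril-binding proteins 9 were higher and 1 lower, and of 10 receptor and uptake genes 8 and 1. Of all genes 30.9% were higher and 32.3% lower.

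Cell type markers were read in the same comparison, Ade against Con, in which 35.1% of all genes were called higher and 32.2% lower. All 10 fibroblast and mural markers were higher in Ade, with a summed level of 443 to 546 CPM in Con, 912 to 1309 CPM in Ade and 836 to 1587 CPM in Ade + IMC. All 6 macrophage markers were higher (188 to 228 CPM in Con, 1232 to 2024 CPM in Ade), the 7 proximal tubule markers tested were all lower (1811 to 6189 CPM in Ade), and 4 of 6 endothelial markers were lower. Cartilage markers could be read for 2 of 5 genes, of which Sox9 was higher and Comp lower. The adipocyte markers, 4 of 5 with counts, were not tested against Con and summed to 0.404 to 6.93 CPM in Con, 0.250 to 61.9 CPM in Ade and 0.138 to 281 CPM in Ade + IMC. Between Ade + IMC and Ade none of these markers was called by limma. The part of cell composition in the collagen results was not tested.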

How the data were processed

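Kidney RNA-seq of 17 mice was used (5 Con, 6 Ade, 6 Ade + IMC) and the 4 Control + IMC mice were not analysed here. The authors sequenced 50-base single-end reads and mapped them to mm10. The paper names STAR, whereas the submitters' processing notes list Bowtie2 2.2.5 and HTSeq 0.9.1. Annotation release and strand are not given in the sources used here. The authors deposited raw counts for Con and Ade mice and, for Ade and Ade + IMC mice, a normalized signal, the count divided by the DESeq2 size factor. Whole reads were recovered from it (100% of values whole within 0.001), and 0 values differed from the raw counts of the 6 Ade mice. Another deposited table holds the authors' fold changes and p-values for Ade + IMC against Ade. Of it only the pairing of gene names and identifiers was used.

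Ade and Ade + IMC mice were each compared with Con mice by edgeR 4.0.16 (TMM, filterByExpr), the latter on the recovered reads. Ade + IMC and Ade mice were set against each other in limma 3.58.1 (trended), using log2(normalized count + 1) for genes averaging 10 or more. P-values were adjusted by Benjamini-Hochberg over all genes tested and called below 0.1. Chain pairs were compared by exact permutation with 0.5 added to each count. Members, classes, lists and tests were chosen with earlier results of these data known. Named chains are the 3 with the highest mean CPM in each class, the 5 largest rises and falls, the 5 smallest p between Ade + IMC and Ade, and all chains not called between Ade and Con. Up to 3 genes with the smallest p per comparison were named per list. Krt5 (with the urothelial list), Loxl4, the values of Nphs1 per mouse, Col5a1, Col5a3, Col11a2, Col9a3, Col20a1, Col6a5 and Col6a6 were added after their values were seen. Coordinates are of GENCODE M21 (GRCm38, mm10), and lengths are those of the protein-coding transcript with the longest open reading frame. DESeq2 1.42.0, other scalings, filters, pseudocounts, a block for the leading digit of the mouse number and leaving out each mouse were alternatives. Each fit was tested on simulated data. CPM carry counting error at low counts, which the floor of 3 counts describes.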

Additional observations from a re-analysis of the deposited data

Results flagged for a closer look

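Over 129 groups of values (the named chains and the 13 pair ratios in each diet group), 8 had a mouse that stood apart from the rest of its group by Dixon's test, where chance alone gives about 6. Con mouse 201 had 5.85 CPM of Col17a1 against 0.392 to 0.909 CPM in the other Con mice. Con mouse 302 had 4.03 CPM of Col13a1 against 1.59 to 2.02 CPM, and Con mouse 301 had 0.406 CPM of Col8a2 against 0.706 to 0.784 CPM. Ade mouse 407 had 19.6 CPM of Col6a4 against 3.01 to 7.23 CPM in the other Ade mice, and mouse 308 had 288 CPM of Col27a1 against 194 to 229 CPM. Ade + IMC mouse 412 had 496 CPM of Col1a1 against 719.5 to 815 CPM, mouse 212 had 1.08 CPM of Col10a1 against 0 to 0.277 CPM, and mouse 310 had a Col8a1 to Col8a2 ratio of 6.43 against 3.22 to 4.25. The values of Col8a2 in Con and of Col10a1 rest on 9 counts or fewer per mouse.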

How the results depend on the processing

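The number of chains higher in Ade than in Con (26) lay between 23 and 30 and the number lower (3) between 3 and 4 over all alternatives, and against Con in Ade + IMC (26 and 3) between 22 and 30 and between 2 and 4. The 10 chain pairs that passed between Ade and Con stayed at 10 in each alternative, those between Ade + IMC and Ade (3) at 1 to 5 when 1 mouse was left out. For Ade + IMC against Ade, 0 chains were called in all alternatives with 2 exceptions, DESeq2 on recovered reads (1 higher) and the first digit as a block (1 higher), while an unadjusted p below 0.05 gave 1 higher and 5 lower. The first digit as a block gave 27 higher and 3 lower between Ade and Con. Of the 6 chains tested and not called between Ade and Con, 4 changed sign in some alternative: Col13a1 (log2 fold change -0.09) was at 0.21 with library size only, 0.21 without Con mouse 302 and 0.05 without Ade mouse 207 (range with 1 mouse left out -0.27 to 0.21), Col23a1 (-0.18) was at 0.11 and Col4a5 (-0.16) at 0.13 with library size only, and Col27a1 (0.05) lay between -0.03 and 0.09 with 1 mouse left out. The Col4a1 to Col4a2 ratio, with a log2 difference near 0, lay between -0.02 and 0.01 with 1 mouse left out. Col8a1 in Ade + IMC against Con (-0.01, not called) was at 0.01 with RLE size factors, 0.08 with upper quartile scaling, 0.30 with library size only, 0.01 with DESeq2, 0.03 in the fit of 17 mice, 0.11 with the block and -0.17 to 0.33 with 1 mouse left out. In Ade + IMC against Ade, Col4a4 lay between -0.00 and 0.21 and Col6a2 between -0.02 and 0.24 with 1 mouse left out. The call of Col26a1 in Ade + IMC against Con was lost with library size only (log2 fold change -0.51). The cause was not tested. Depth limits the scarce chains: those with fewer than 10 counts in Con have fold changes that depend on single reads.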
